A study of Mus musculus with 20 samples.

Results

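The cell division and DNA replication genes described here are 42 genes fixed by name, of the 28786 gene names that the arrays read. They were chosen with earlier results of these data known. They comprise 24 genes of mitosis, 15 of DNA replication and 3 transcription regulators of the cell cycle. Each was read through a single probe, the brightest of its probes over the 20 arrays. The mice were male, of C57BL/6 background and 7 months old, and had been fed for 21 weeks on a high-fat diet, HFD, in which fat made up 35%. WT(HFD) mice carried a functional CD44 gene. CD44KO(HFD) mice lacked CD44, a cell surface receptor of hyaluronan, in all cells and not in a chosen cell type, in a line that had been backcrossed to C57BL/6J. Total RNA of liver and of white adipose tissue (WAT) from 5 mice of each genotype was labelled with Cy3 and read on 1 Agilent array per sample, which gave 4 groups of 5. Mice on a normal diet were not analysed here.

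Levels are log2 processed signals relative to the 75th percentile of the same array, so that 0 marks a spot as bright as that percentile, and a difference of 1 is a 2-fold change. The 75th percentile lay between 433 and 575 intensity units in liver and between 1541 and 2792 in WAT. The targeted gene was lower in all 10 CD44KO(HFD) samples than in WT(HFD) samples of the same tissue: log2 changes of the 2 informative Cd44 probes were -4.57 and -4.21 in liver and -4.28 and -4.57 in WAT, and the groups did not overlap. In CD44KO(HFD) WAT both probes were still well above background on all 5 arrays, with means of -1.73 and -0.51. In CD44KO(HFD) liver they were so on 0 and 3 arrays. Another Cd44 probe was dim and checked nothing. Of the defining hepatocyte markers, 9 of the 9 on the array were well above background in liver, as were 10 of the 10 adipocyte markers in WAT. The 9 were also so in WAT, and 6 of the 10 in liver, so this count does not separate the tissues. Summed linear levels of the hepatocyte markers, in units of the 75th percentile, were 2090 to 2990 in liver and 2.13 to 47.4 in WAT. Those of the adipocyte markers were 565 to 1430 in WAT and 26.8 to 133 in liver. One array stood apart: on WT(HFD) WAT replicate 1, 89.5% of spots were well above background against 63.2% to 69.5% on the other WAT arrays, and its median correlation with its own group was 0.838 against 0.973 to 0.982. WAT changes are therefore given with and without it. The liver and WAT arrays were on separate slides, so tissue and slide cannot be told apart and levels are not tested between tissues.

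A cell that divides first copies its DNA in S phase and then separates the copies in mitosis. The MCM helicase is loaded on DNA by Cdc6 and Cdt1, ribonucleotide reductase supplies deoxynucleotides, and Pcna clamps the polymerase to the template. Cyclin A and cyclin B with Cdk1, the Aurora and Polo-like kinases, kinesin motors and centromere proteins then drive mitosis, which ends when Cdc20 directs the anaphase-promoting complex to its substrates. E2F factors switch on the replication genes, and B-Myb (Mybl2) and Foxm1 the mitosis genes that follow. Most hepatocytes of the adult liver are out of the cell cycle, so mRNAs of mitosis are scarce there, and in obese WAT dividing cells include those of the stroma. In whole-tissue RNA, fewer dividing cells and less of the mRNA per cell cannot be told apart.

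In liver, most of the tested genes of mitosis were lower in CD44KO(HFD) than in WT(HFD) mice. Of the 42 genes, 37 were bright enough to test, and 17 of them (45.9%) were lower at an adjusted p under 0.05, limma with Benjamini-Hochberg adjustment over 24688 probes, where 5.75% of all probes tested were lower. None was higher, although 1938 of all probes were. The genes were chosen with earlier results of these data known, so these shares describe them and are no test of the list. Mitosis genes supplied 13 of the 17, out of 20 tested. The 20 log2 fold changes ran from -1.83 to -0.35 with a median of -1.04, against a median of 0.08 over all probes. Each of the 20 was negative with an unadjusted p under 0.05, where 11.8% of all probes were. In each of the 20, all 5 CD44KO(HFD) livers lay below the WT(HFD) mean, which was not counted over all probes. Among replication genes 2 of 14 tested were lower (Rrm2 and Mcm2), 10 were negative and 4 positive, and the median was -0.28. At an unadjusted p under 0.05 (limma), 8 of the 14 were lower and 1 was higher. Of the 24688 probes tested, 2918 were lower and 5028 higher at that level. In 6 of the 14 replication genes, all 5 CD44KO(HFD) livers lay below the WT(HFD) mean, again not counted over all probes. Foxm1 and E2f1, 2 of the 3 regulators, were lower and Mybl2 was not past the threshold. The difference between the gene groups was not tested.

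The liver count moved with the background correction and with single arrays, and so did the share of all probes that were lower. Normexp background correction, which also added an offset of 50 units to the signals, was run in place of the scanner software's own. With it 5 genes stayed past the threshold (Cdc20, Ccnb2, Aurka, Birc5 and Kif20a), although all 17 remained negative. The share of all probes that were lower was then 1.72%, and the median of the mitosis genes was -0.62. Those 5 had median processed signals of 433 to 898 units in liver, and the other 12 of 28.5 to 457 units. The parts of the offset and of the background correction in the normexp changes were not tested. Leaving out WT(HFD) liver replicate 2 gave a count of 4 (Rrm2, Ccnb1, Birc5 and Aurka), and leaving out WT(HFD) replicate 1 a count of 8. Leaving out CD44KO(HFD) replicate 4 or 5 gave 9 or 11. The share of all probes that were lower was 2% without WT(HFD) replicate 2, 2.93% without replicate 1, and 2.54% and 3.24% without CD44KO(HFD) replicates 4 and 5. Over the 10 fits that left out 1 array, the median of the mitosis genes stayed between -1.18 and -0.88. Mki67, Top2a, Plk1, Tpx2, Mcm2 and E2f1 missed the threshold without any of CD44KO(HFD) replicates 4 and 5 and WT(HFD) replicates 1 and 2, each left out on its own, and Foxm1 and Ube2c without any of those but CD44KO(HFD) replicate 5. Without the filter on dim signals, which then let 41174 probes into the adjustment, the count was 8 and the share of all probes 1.4%. The tested genes that passed that filter only through WT(HFD) liver were Top2a, Kif2c and Ccne2. Without those, 16 of 34 were lower, with a median of -0.85 as before. Aurkb, Bub1, Kif11, Ttk and Cdc6 were too dim in liver to be tested.

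**Figure D1:**
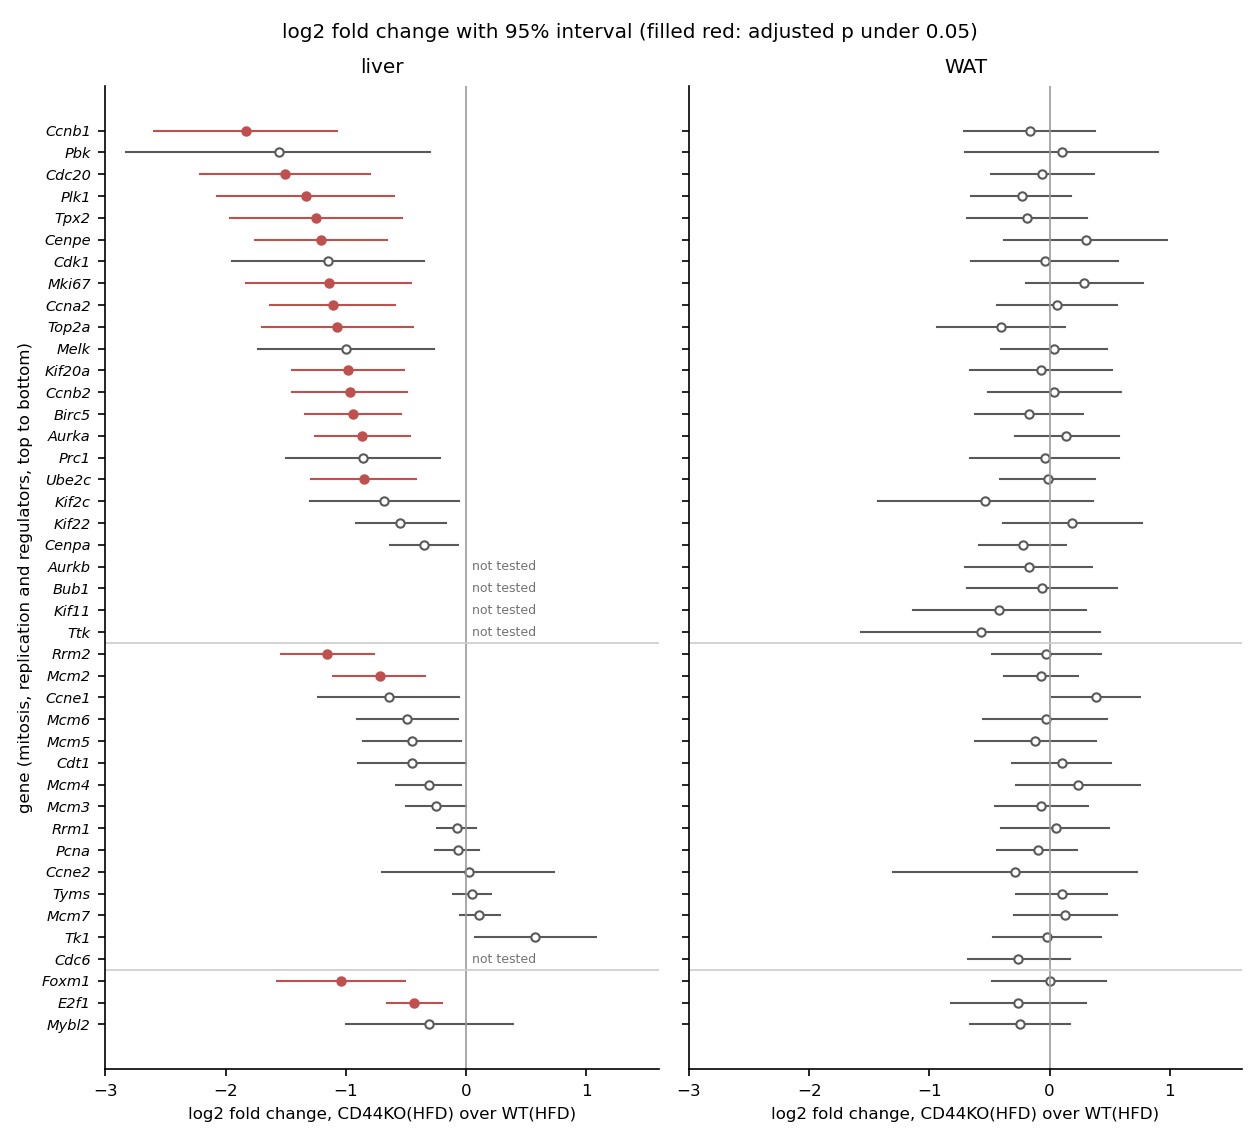
log2 fold change of CD44KO(HFD) over WT(HFD) for each of the 42 genes (rows) in liver (left) and WAT (right), with bars for the 95% interval of the limma estimate (n = 5 per genotype and tissue) and filled red points for an adjusted p under 0.05. The 20 tested mitosis genes lie between -1.83 and -0.35 in liver, and no gene passed in WAT.

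The promoters of 7 genes are shown as examples, picked without a rule, so they do not stand for the rest. They are 3 mitosis genes that were lower in liver, the 2 replication genes that were lower, and 2 replication genes not past the threshold. Promoters of mitosis genes are known for the cell cycle genes homology region (CHR) and for CCAAT boxes, and those of replication genes for E2F sites. The windows are RefSeq sequences of build GRCm38.p6, from 250 bases before to 50 bases after the transcription start, given 5′ to 3′ on the gene's strand. Capitals mark every match to a CHR, an E2F site or a CCAAT box, each searched on both strands. The CHR was searched as TTTGAA and also as TTTAAA, which is its own reverse complement and was counted once. The CCAAT box was searched by the letters of its name. The E2F site was searched as TTCCCGC and as its common variant TTGGCGC. A further variant of that site, TTCGCGC, was searched as well. Where capitals run together, matches touch or overlap, as the E2F site and the CCAAT box do in Ccnb1. The first sequence is that of Ccnb1 at chr13:100786437-100786736 on the minus strand, followed by Cdc20 at chr4:118437294-118437593 on the minus strand and Aurka at chr2:172370521-172370820 on the minus strand.
Ccnb1: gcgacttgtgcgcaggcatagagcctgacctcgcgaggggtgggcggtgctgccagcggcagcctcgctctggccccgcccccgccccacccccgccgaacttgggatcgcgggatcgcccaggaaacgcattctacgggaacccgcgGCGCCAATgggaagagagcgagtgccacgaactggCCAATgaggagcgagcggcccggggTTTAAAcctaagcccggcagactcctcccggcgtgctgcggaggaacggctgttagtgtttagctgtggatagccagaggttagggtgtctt
Cdc20: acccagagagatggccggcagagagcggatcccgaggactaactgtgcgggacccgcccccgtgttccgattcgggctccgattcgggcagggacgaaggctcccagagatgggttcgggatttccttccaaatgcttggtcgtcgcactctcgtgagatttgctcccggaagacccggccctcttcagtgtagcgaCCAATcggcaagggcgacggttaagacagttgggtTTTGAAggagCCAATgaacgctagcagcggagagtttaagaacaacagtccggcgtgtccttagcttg
Aurka: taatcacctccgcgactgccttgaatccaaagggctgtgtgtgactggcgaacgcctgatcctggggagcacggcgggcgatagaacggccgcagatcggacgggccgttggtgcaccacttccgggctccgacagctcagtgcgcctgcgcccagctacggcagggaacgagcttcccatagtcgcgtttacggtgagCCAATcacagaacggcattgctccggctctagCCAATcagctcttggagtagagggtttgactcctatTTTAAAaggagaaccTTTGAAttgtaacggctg
Rrm2, at chr12:24708004-24708303 on the plus strand, and Mcm2, at chr6:88898731-88899030 on the minus strand, are the replication genes that were lower in CD44KO(HFD) liver.
Rrm2: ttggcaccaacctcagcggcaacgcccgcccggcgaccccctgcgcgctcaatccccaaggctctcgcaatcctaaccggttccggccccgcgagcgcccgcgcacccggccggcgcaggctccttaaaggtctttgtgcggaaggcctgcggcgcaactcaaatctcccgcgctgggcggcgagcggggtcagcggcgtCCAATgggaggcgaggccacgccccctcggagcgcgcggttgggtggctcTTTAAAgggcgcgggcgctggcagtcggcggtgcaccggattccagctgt
Mcm2: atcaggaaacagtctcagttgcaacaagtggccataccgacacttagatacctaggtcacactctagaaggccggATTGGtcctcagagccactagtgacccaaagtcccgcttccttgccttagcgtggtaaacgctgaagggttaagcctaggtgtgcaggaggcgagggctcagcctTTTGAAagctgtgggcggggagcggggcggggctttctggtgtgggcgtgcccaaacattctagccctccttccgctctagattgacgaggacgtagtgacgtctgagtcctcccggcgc
Mcm6, at chr1:128359656-128359955 on the minus strand, and Pcna, at chr2:132253131-132253430 on the minus strand, did not pass the threshold.
Mcm6: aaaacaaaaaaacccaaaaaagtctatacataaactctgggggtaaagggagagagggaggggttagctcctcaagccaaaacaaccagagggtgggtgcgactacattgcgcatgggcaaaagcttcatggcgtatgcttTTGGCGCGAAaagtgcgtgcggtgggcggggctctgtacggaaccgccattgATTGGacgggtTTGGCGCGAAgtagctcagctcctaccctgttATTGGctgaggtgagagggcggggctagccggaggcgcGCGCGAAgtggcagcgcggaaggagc
Pcna: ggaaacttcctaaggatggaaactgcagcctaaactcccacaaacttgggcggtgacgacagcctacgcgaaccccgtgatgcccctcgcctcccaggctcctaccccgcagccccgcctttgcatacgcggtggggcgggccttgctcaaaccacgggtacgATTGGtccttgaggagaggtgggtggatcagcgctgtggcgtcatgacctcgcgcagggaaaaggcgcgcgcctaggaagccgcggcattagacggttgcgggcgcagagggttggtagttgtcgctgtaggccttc

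A window was found for 34 of the 42 genes. Of the mitosis genes with a window, 17 of 19 (89.5%) held a CHR and 16 of 19 (84.2%) a CCAAT box, where 30.6% and 41.1% of 27025 mouse genes with a window did. An E2F site lay in 3 of the 19 (15.8%) against 9.2% of all genes. Among replication genes, 7 of 13 (53.8%) held an E2F site, 5 of 13 (38.5%) a CHR and 8 of 13 (61.5%) a CCAAT box. All 10 mitosis genes that were lower in liver and had a window held a CHR, and so did 5 of the 6 that were tested and not past the threshold. Rrm2 and Mcm2 held a CHR and a CCAAT box and no E2F site. Of the 10 replication genes with a window that were not past the threshold, 3 held a CHR (Mcm5, Tk1 and Ccne1) and 6 an E2F site. Mcm6 held 5 E2F matches, of which 4 lay in 2 overlapping pairs, and no CHR, and Pcna a CCAAT box alone. The 2 regulators with a window, Mybl2 and E2f1, held none of the motifs. These are matches of letters, described without a test.

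**Figure D2:**
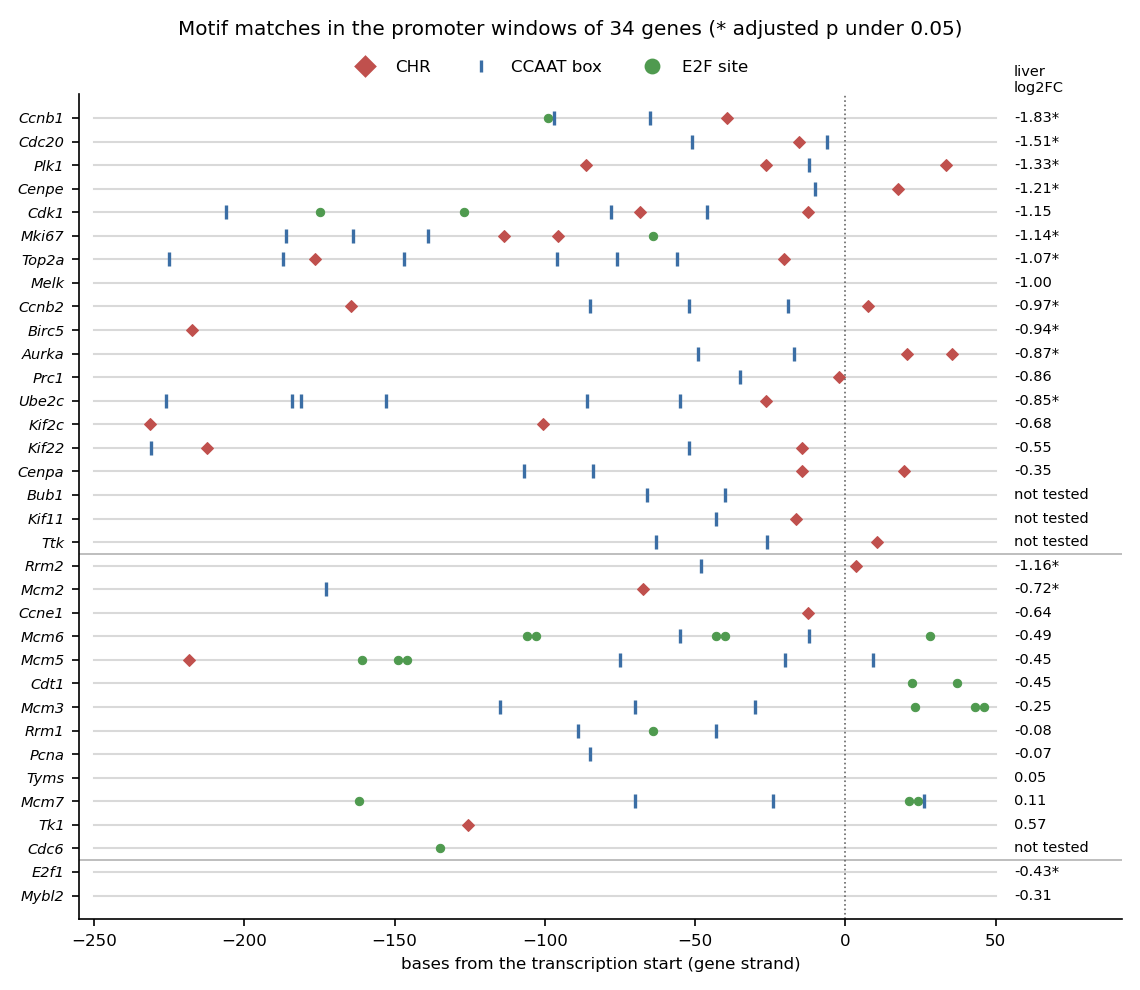
Matches to the CHR (red diamonds), the CCAAT box (blue ticks) and the E2F site (green circles) in the promoter windows of 34 genes, by distance in bases from the transcription start (dotted line); for genes with 2 windows the first is drawn. The liver log2 fold change is at the right, with an asterisk for an adjusted p under 0.05; a CHR lies in 17 of 19 mitosis genes (top) and 5 of 13 replication genes (middle).

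The cyclin genes of mitosis were lower in CD44KO(HFD) liver. Ccnb1 encodes cyclin B1, the cyclin whose accumulation takes cells into mitosis, and read -1.90, -1.80, -2.74, -3.02 and -2.88 in WT(HFD) replicates 1 to 5 and -4.1, -4.96, -3.32, -4.74 and -4.41 in CD44KO(HFD) replicates 1 to 5. The genotypes did not overlap, and the level fell by 1.83 ± 0.34 on the log2 scale (SE, limma, n = 5 per genotype; adjusted p = 0.0149), a 3.57-fold reduction and the largest among the 37 genes tested. Ccnb1 was well above background on 3 of the 5 CD44KO(HFD) arrays, 2 further Ccnb1 probes were too dim to test, and the normexp estimate was -0.59 with an adjusted p of 0.297. Ccnb2, the gene of cyclin B2, read 1.1, 1.05, 0.73, 0.50 and 0.54 in the WT(HFD) and 0.09, -0.54, 0.37, -0.73 and -0.13 in the CD44KO(HFD) livers. Again the groups did not overlap, with a log2 change of -0.97 ± 0.22 (adjusted p = 0.0219, limma). Ccna2, the gene of cyclin A2, which acts in S phase and early mitosis, read -0.34, -0.30, -0.64, -1.06 and -1.24 in WT(HFD) and -1.74, -2.36, -1.38, -2.08 and -1.58 in CD44KO(HFD) liver. All 5 CD44KO(HFD) values lay below the lowest WT(HFD) value, and the change was -1.11 ± 0.23 (adjusted p = 0.0193, limma), or -0.68 under normexp (adjusted p = 0.134). Cdk1, the kinase that these cyclins activate, read -1.37, -1.25, -2.11, -1.84 and -2.03 in WT(HFD) and -2.19, -3.99, -1.97, -3.16 and -3.04 in CD44KO(HFD) liver. Its groups overlapped through CD44KO(HFD) replicate 3, and its change of -1.15 ± 0.36 missed the threshold (adjusted p = 0.059, limma).

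Cdc20 and Ube2c, of the anaphase-promoting complex, and the kinase genes Aurka and Plk1 were lower as well. Cdc20, the activator of that complex, read 1.81, 2.09, 1.38, 1.01 and 0.93 in WT(HFD) and 0.27, -0.88, 0.70, -0.41 and 0.01 in CD44KO(HFD) liver. The genotypes did not overlap, and Cdc20 fell by 1.51 ± 0.32 (adjusted p = 0.0194, limma), a 2.84-fold reduction. Ube2c, the enzyme that supplies ubiquitin to the same complex, read -1.06, -0.91, -1.20, -1.32 and -1.48 in WT(HFD) and -1.84, -2.75, -1.65, -2.08 and -1.91 in CD44KO(HFD) liver. No CD44KO(HFD) value reached a WT(HFD) value, and the change was -0.85 ± 0.20 (adjusted p = 0.0244, limma), or -0.50 under normexp (adjusted p = 0.197). Aurka, the Aurora A kinase of the spindle poles, read 0.81, 0.78, 0.42, 0.47 and 0.23 in WT(HFD) and -0.1, -0.80, 0.06, -0.56 and -0.24 in CD44KO(HFD) liver. Here too every CD44KO(HFD) value was below every WT(HFD) value, with a change of -0.87 ± 0.18 (adjusted p = 0.0181, limma). Birc5, or survivin, a subunit of the chromosomal passenger complex, read 1.29, 1.40, 1.02, 0.88 and 0.78 in WT(HFD) and 0.37, -0.33, 0.56, -0.02 and 0.07 in CD44KO(HFD) liver. It fell by 0.94 ± 0.18 without overlap (adjusted p = 0.0158, limma). Plk1, Polo-like kinase 1, changed by -1.33 ± 0.33 (adjusted p = 0.0296, limma). The kinases Melk and Pbk had changes of -1 and -1.56 that were not past the threshold (adjusted p = 0.0683 and 0.0913, limma), and Pbk was the most variable mitosis gene among CD44KO(HFD) livers, with an SD of 1.34. Each was well above background on 3 of the 5 CD44KO(HFD) arrays, and the normexp changes of Melk and Pbk were -0.04 and -0.43.

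Genes of motors and chromosome proteins of mitosis made up the rest. Kif20a, a kinesin of cytokinesis, read 0.63, 0.68, 0.11, -0.07 and -0.19 in WT(HFD) and -0.72, -1.14, -0.28, -0.90 and -0.70 in CD44KO(HFD) liver. Its groups were separate, with a change of -0.98 ± 0.21 (adjusted p = 0.0196, limma), and a second Kif20a probe gave -1.06. Cenpe, a kinesin of the kinetochore, read -0.58, -0.53, -0.96, -1.25 and -1.15 in WT(HFD) and -1.95, -2.84, -1.42, -2.30 and -2 in CD44KO(HFD) liver. The highest CD44KO(HFD) value, that of replicate 3, was below the lowest WT(HFD) value, and the change was -1.21 ± 0.25 (adjusted p = 0.0184, limma), or -0.79 under normexp (adjusted p = 0.0798). Mki67, the gene of the Ki-67 proliferation antigen, read 0.66, 0.60, 0.13, -0.12 and -0.01 in WT(HFD) and -0.51, -1.91, -0.17, -1.23 and -0.65 in CD44KO(HFD) liver. The groups came close, at -0.12 and -0.17, without overlap, and the change of -1.14 ± 0.31 (adjusted p = 0.0382, limma) was -1.32 on a second Mki67 probe. Without 1 of the 10 liver arrays in turn, Mki67 passed in 2 of 10 fits. Top2a, the topoisomerase that untangles sister chromatids, read -3.17, -3.27, -4.09, -3.95 and -3.73 in WT(HFD) and -4.52, -5.59, -4.04, -4.87 and -4.54 in CD44KO(HFD) liver. CD44KO(HFD) replicate 3 reached into the WT(HFD) range, 2 of the 5 CD44KO(HFD) arrays were well above background, and the change of -1.07 ± 0.28 (adjusted p = 0.0353, limma) shrank to -0.02 under normexp. Tpx2, a spindle assembly factor, was lower by the processed signals (-1.25 ± 0.32, adjusted p = 0.033, limma) and at -0.40 under normexp (adjusted p = 0.432). Kif22, Kif2c, Prc1 and Cenpa had changes of -0.55, -0.68, -0.86 and -0.35 that were not past the threshold, with adjusted p between 0.0561 and 0.126 (limma). Under normexp the Kif2c change was 0.13.

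**Figure D3:**
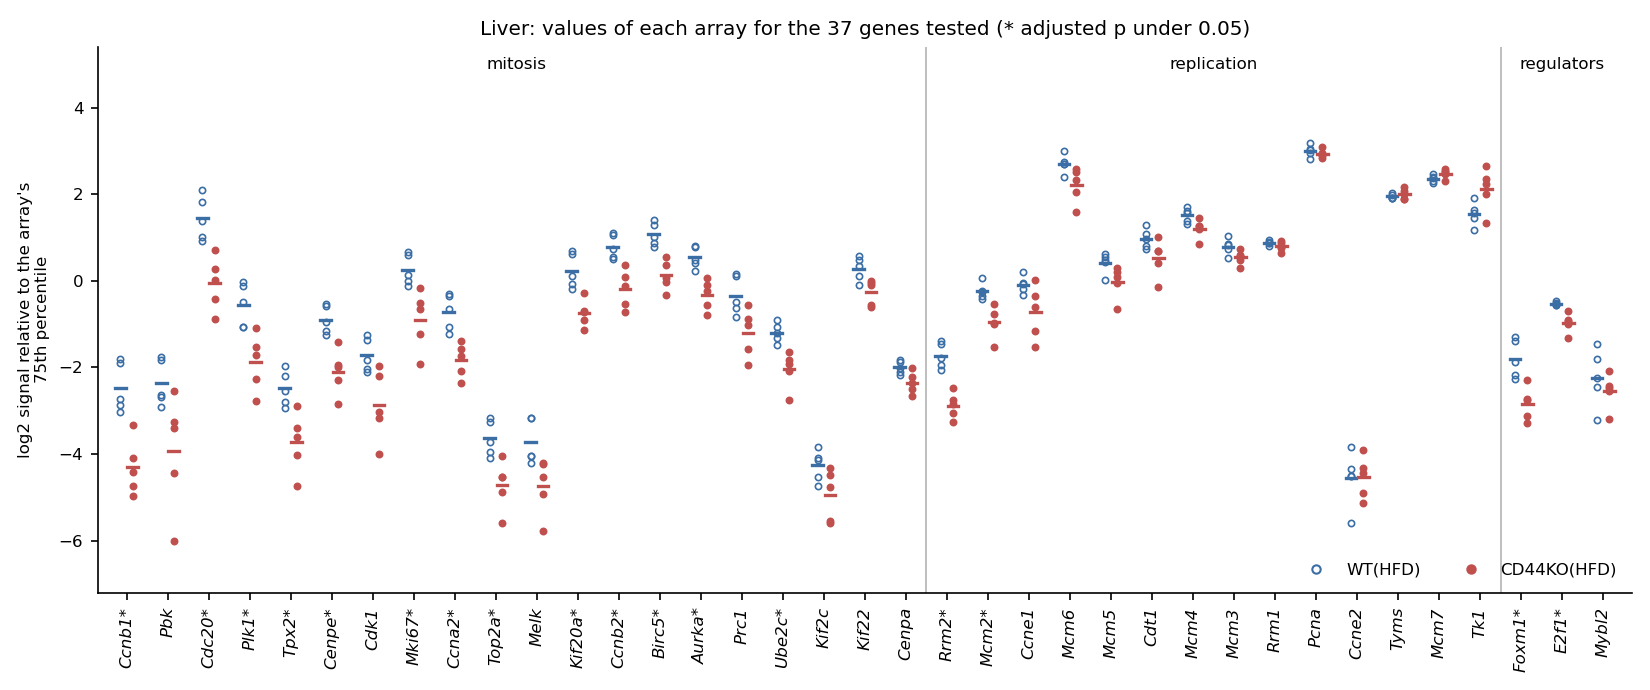
Liver level of each of the 37 tested genes on each array, as log2 signal relative to the array's 75th percentile, for WT(HFD) (open blue circles) and CD44KO(HFD) (filled red circles), n = 5 each, with lines at the means and an asterisk for an adjusted p under 0.05. The genotypes do not overlap for 11 of the 20 mitosis genes, 2 of the 14 replication genes and 2 of the 3 regulators. Over all probes tested in liver, 4.22% were lower in CD44KO(HFD) without overlap.

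Among replication genes, those of a reductase subunit and of a helicase subunit were lower. Rrm2, the regulated subunit of ribonucleotide reductase, read -1.45, -1.79, -1.40, -1.94 and -2.05 in WT(HFD) and -2.76, -3.06, -2.48, -3.27 and -2.85 in CD44KO(HFD) liver. It fell by 1.16 ± 0.17 without overlap, with the smallest adjusted p of the 37 genes tested (0.00936, limma), and was past the threshold in all 10 fits that left out 1 liver array. Under normexp the Rrm2 change was -0.48 and not past the threshold (adjusted p = 0.294, limma). Its partner Rrm1, the large subunit of the same enzyme, changed by -0.08 ± 0.07, with a 95% interval from -0.24 to 0.08. Mcm2, a subunit of the replicative helicase, read 0.07, -0.27, -0.34, -0.42 and -0.24 in WT(HFD) and -0.77, -1.54, -0.53, -0.99 and -0.97 in CD44KO(HFD) liver. The genotypes did not overlap, and Mcm2 fell by 0.72 ± 0.17 (adjusted p = 0.0272, limma). Mcm6, another subunit of that helicase, read 3, 2.69, 2.39, 2.75 and 2.69 in WT(HFD) and 2.51, 1.59, 2.59, 2.06 and 2.32 in CD44KO(HFD) liver. CD44KO(HFD) replicate 2 was lowest and the groups overlapped, with a change of -0.49 ± 0.19 (adjusted p = 0.107, limma). The other helicase subunits, Mcm3, Mcm4, Mcm5 and Mcm7, had changes of -0.25, -0.31, -0.45 and 0.11, none past the threshold. Cdt1, which loads the helicase, changed by -0.45 ± 0.20 (adjusted p = 0.151, limma).

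Pcna, the sliding clamp, read 2.96, 3.02, 2.81, 3.19 and 3.05 in WT(HFD) and 3.08, 2.95, 2.90, 2.91 and 2.83 in CD44KO(HFD) liver. The 2 ranges lay over each other, and the 95% interval of the log2 change, -0.07, ran from -0.26 to 0.11. Tyms and Tk1, the thymidylate synthase and thymidine kinase of nucleotide supply, had changes of 0.05 ± 0.07 and 0.57 ± 0.23 that were not past the threshold (adjusted p = 0.7 and 0.116, limma). Ccne1, the gene of cyclin E1, which starts S phase, read 0.20, -0.06, -0.19, -0.32 and -0.08 in WT(HFD) and -0.35, -1.54, 0.02, -1.17 and -0.61 in CD44KO(HFD) liver. CD44KO(HFD) values spread more widely and overlapped those of WT(HFD), and the change of -0.64 ± 0.26 was not past the threshold (adjusted p = 0.125, limma). Ccne2, measured clear of background in 3 WT(HFD) livers and 1 CD44KO(HFD) liver, changed by 0.02 ± 0.32, with a 95% interval from -0.70 to 0.73.

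Foxm1, a transcription factor of mitosis genes, read -1.39, -1.29, -1.87, -2.26 and -2.17 in WT(HFD) and -2.72, -3.28, -2.30, -3.12 and -2.76 in CD44KO(HFD) liver. The groups did not overlap, and Foxm1 fell by 1.04 ± 0.24 (adjusted p = 0.0237, limma), against a normexp change of -0.50 (adjusted p = 0.28, limma). E2f1, a factor that activates replication genes, read -0.56, -0.57, -0.52, -0.54 and -0.47 in WT(HFD) and -0.99, -1.32, -0.70, -0.90 and -0.92 in CD44KO(HFD) liver. WT(HFD) values were nearly equal, with an SD of 0.04, all 5 CD44KO(HFD) values were below them, and the change was -0.43 ± 0.10 (adjusted p = 0.0277, limma). A second E2f1 probe gave -0.49. Mybl2, the gene of B-Myb, changed by -0.31 ± 0.31 (adjusted p = 0.539, limma) with overlapping groups.

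Gene by gene, 15 of the 37 tested genes (40.5%) had all 5 CD44KO(HFD) livers below all 5 WT(HFD) livers, where 4.22% of all probes tested did. None had the reverse. With the 10 liver arrays relabelled in all 252 ways (exact permutation test), these 15 had a p of 0.0079, the smallest two-sided value that the design allows. Groups that do not overlap give that p by necessity, so it adds nothing to the separation itself. Of the 7 genes on chromosome 2, which also carries Cd44 (GRCm38.p6), Aurka, Tpx2, Ube2c and E2f1 were among the 17 that were lower. They lie 69.5, 50, 62 and 51.7 megabases from Cd44.

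The same few liver arrays held the extremes of the mitosis genes. WT(HFD) replicates 1 and 2 held the highest value of all 20 tested mitosis genes, replicate 1 of 9 genes and replicate 2 of 11. CD44KO(HFD) replicate 2 held the lowest value of 18 and CD44KO(HFD) replicate 4 that of the other 2. The mean over the 20 genes, relative to the WT(HFD) mean, was 0.36, 0.41, -0.14, -0.29 and -0.33 in WT(HFD) replicates 1 to 5. It was -0.84, -1.81, -0.43, -1.31 and -0.92 in CD44KO(HFD) replicates 1 to 5, so that CD44KO(HFD) replicate 3 came closest to the WT(HFD) arrays and the groups did not overlap. Replication genes gave smaller and overlapping means, 0.14, -0.02, -0.19, 0.06 and 0.01 in WT(HFD) and -0.16, -0.57, -0.06, -0.30 and -0.29 in CD44KO(HFD) liver. Slides were shared by the genotypes in liver. Within each of the 3 liver slides all 20 tested mitosis genes were lower in CD44KO(HFD), with medians of -0.70, -1.59 and -0.64 on slides A, B and C. All 17 genes past the threshold were lower on each slide, but they were chosen as lower from these same arrays. Genes without overlap between the genotypes, 15 of the 37 tested, are lower on every slide by necessity. Slide C held 1 array per genotype. Fitted with the slide as a block, 18 genes were past the threshold, where 7.16% of all probes tested were lower.

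**Figure D4:**
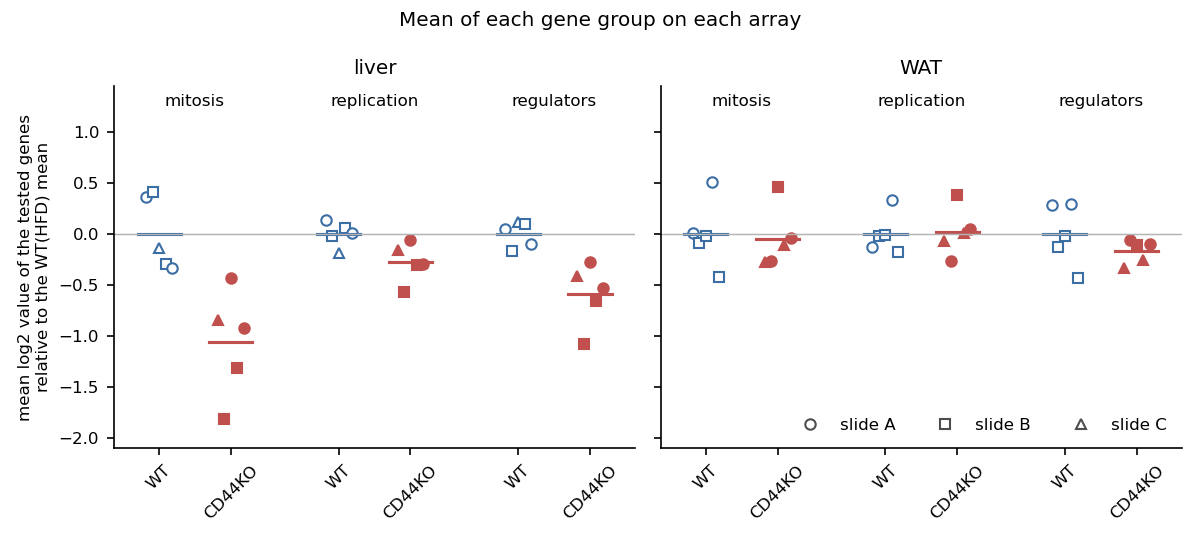
Mean log2 level of the tested mitosis, replication and regulator genes on each array, relative to the WT(HFD) mean of the same tissue, in liver (left) and WAT (right); open blue symbols are WT(HFD), filled red symbols CD44KO(HFD), shapes give the slide and lines the group mean. Mitosis means of CD44KO(HFD) livers run from -1.81 to -0.43 and those of WT(HFD) livers from -0.33 to 0.41, while the WAT groups overlap.

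In WAT, all 42 genes were bright enough to test and none was past the threshold, where 0.0398% of all 27652 probes tested were. Other fits passed more of all probes, 1280 lower and 1534 higher with array weights and 642 lower and 1094 higher in a single fit of all 20 arrays, and still none of the 42. At an unadjusted p under 0.05 there was 1 gene, Ccne1, where 14.9% of all probes passed. The log2 fold changes ran from -0.57 to 0.39 with a median of -0.05, against -0.06 over all probes. Scaling by each array's median in place of the 75th percentile moved the median of all probes to 0.42 and that of the 42 genes to 0.43. Without WT(HFD) WAT replicate 1 the median was -0.07, the smallest adjusted p was 0.369 and still none passed (limma). The medians of mitosis and replication genes were -0.06 and -0.03, or -0.10 and -0.04 without that array.

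Mki67 read 1.74, 2.21, 2.05, 2.77 and 2.02 on the WT(HFD) WAT arrays and 2.08, 2.51, 2.91, 2.37 and 2.39 on the CD44KO(HFD) arrays. The ranges overlapped, and the change was 0.29 ± 0.22 (adjusted p = 0.53, limma), or 0.19 without WT(HFD) replicate 1. Ccnb1 read -1.29, -1.28, -1.06, -0.69 and -1.79 on the WT(HFD) WAT arrays and -1.69, -1.61, -0.71, -1.47 and -1.43 on the CD44KO(HFD) arrays. Replicate 3 was the highest CD44KO(HFD) array, the groups overlapped and the change was -0.16 ± 0.25, or -0.18 without WT(HFD) replicate 1. Cdk1 read -0.39, -0.07, 0.02, 0.37 and -0.62 on the WT(HFD) WAT arrays and -0.46, -0.63, 0.66, -0.30 and -0.17 on the CD44KO(HFD) arrays. The Cdk1 groups overlapped, with a change of -0.04 ± 0.27 and a 95% interval from -0.65 to 0.57 (-0.10 without WT(HFD) replicate 1). Cenpe read 1.90, 2.25, 1.76, 2.84 and 1.78 on the WT(HFD) WAT arrays and 2.25, 1.80, 3.28, 2.18 and 2.51 on the CD44KO(HFD) arrays. CD44KO(HFD) replicate 3 was highest and the groups overlapped. The change of 0.30 ± 0.30 was not past the threshold and was 0.25 without WT(HFD) replicate 1, and 2 dimmer Cenpe probes gave -0.14 and -1.66.

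WT(HFD) WAT replicate 1, the array that stood apart, was the highest array for Top2a, Ttk, Kif2c and Kif11. Top2a read -0.46, -1.61, -1.26, -1.02 and -1.66 on the WT(HFD) WAT arrays and -1.97, -1.69, -1.52, -1.44 and -1.43 on the CD44KO(HFD) arrays. The change of -0.40 ± 0.24 (adjusted p = 0.44, limma) was -0.22 without that array. Ttk read -2.17, -4.58, -4.38, -3.81 and -4.65 on the WT(HFD) WAT arrays and -4.79, -4.91, -4.06, -4.30 and -4.39 on the CD44KO(HFD) arrays. Ttk, a kinase of the spindle checkpoint, had the largest difference of the 42 genes in WAT, -0.57 ± 0.45, which was -0.13 without that array. Kif2c read -0.76, -2.86, -2.73, -2.28 and -3.03 on the WT(HFD) WAT arrays and -3.27, -2.85, -2.39, -2.92 and -2.91 on the CD44KO(HFD) arrays. For Kif2c, a kinesin that takes microtubules apart, -0.54 ± 0.40 likewise became -0.14. Kif11 read -1.50, -2.96, -2.40, -2.25 and -2.99 on the WT(HFD) WAT arrays and -3.26, -3.43, -2.40, -2.51 and -2.60 on the CD44KO(HFD) arrays. The change of Kif11, the motor that separates the spindle poles, was -0.42 ± 0.32 with and -0.19 without replicate 1.

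Ccne1 read 0.95, 1.08, 0.99, 1.34 and 1.09 on the WT(HFD) WAT arrays and 1.75, 1.52, 1.71, 1.15 and 1.24 on the CD44KO(HFD) arrays. The Ccne1 groups overlapped through WT(HFD) replicate 4, and the change of 0.39 ± 0.16 was not past the threshold (adjusted p = 0.316, limma; exact permutation p = 0.04), and was 0.35 without WT(HFD) replicate 1. Ccne2 read -1.14, -2.44, -2.42, -1.96 and -2.66 on the WT(HFD) WAT arrays and -2.24, -4.04, -1.63, -2.07 and -2.08 on the CD44KO(HFD) arrays. CD44KO(HFD) replicate 2 was the lowest array for Ccne2, whose change of -0.29 ± 0.46 was 0.12 without it and -0.04 without WT(HFD) replicate 1. Rrm2 read -0.80, -0.48, -0.73, -0.23 and -0.90 on the WT(HFD) WAT arrays and -1.05, -0.18, -0.43, -0.79 and -0.84 on the CD44KO(HFD) arrays. The Rrm2 groups lay over each other, with a change of -0.03 ± 0.20 and a 95% interval from -0.48 to 0.43 (-0.07 without WT(HFD) replicate 1). Mcm2 read -0.14, -0.20, -0.14, 0.11 and -0.43 on the WT(HFD) WAT arrays and -0.28, -0.29, -0.37, -0.13 and -0.09 on the CD44KO(HFD) arrays. The highest and the lowest Mcm2 value were both WT(HFD), and the change was -0.07 ± 0.14, the same without WT(HFD) replicate 1. Mcm6 read 4.63, 4.68, 4.45, 5.16 and 4.43 on the WT(HFD) WAT arrays and 4.56, 4.16, 5.31, 4.49 and 4.66 on the CD44KO(HFD) arrays. Both extremes of Mcm6 were CD44KO(HFD), and the change was -0.03 ± 0.23, or -0.04 without WT(HFD) replicate 1.

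Pcna read 4.20, 4.18, 4.44, 4.49 and 4.03 on the WT(HFD) WAT arrays and 4.02, 4.12, 4.49, 4.06 and 4.14 on the CD44KO(HFD) arrays. The Pcna groups overlapped, and the change was -0.10 ± 0.15, or -0.12 without WT(HFD) replicate 1. Cdc6 read -1.87, -2.64, -2.48, -2.13 and -2.67 on the WT(HFD) WAT arrays and -2.94, -2.60, -2.36, -2.57 and -2.60 on the CD44KO(HFD) arrays. Cdc6, which loads the helicase with Cdt1, overlapped between genotypes, with a change of -0.26 ± 0.19 that was -0.13 without WT(HFD) replicate 1. E2f1 read 0.04, 0.12, 0.15, 0.29 and -0.65 on the WT(HFD) WAT arrays and -0.34, 0.43, -0.79, -0.35 and -0.30 on the CD44KO(HFD) arrays. The E2f1 change of -0.26 ± 0.25 was not past the threshold, was -0.25 without WT(HFD) replicate 1, and WT(HFD) replicate 5 was the lowest WT(HFD) array. Across WAT arrays, WT(HFD) replicate 4 and CD44KO(HFD) replicate 3 held the highest value of 9 and 11 of the 24 mitosis genes, so the extremes came from both genotypes. Within WAT slides the direction was not the same: 37 of 42 genes were lower in CD44KO(HFD) on slide A (median -0.33) and 4 of 42 on slide B (median 0.50), where CD44KO(HFD) was a single array. WAT slide C held CD44KO(HFD) arrays alone.

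The genotype effect in WAT was compared with that in liver by an interaction term in a fit of all 20 arrays. Whether same-numbered liver and WAT samples came from the same mouse is not given in the sources used here, and the fit took all 20 as independent. None of the 42 genes passed an adjusted p of 0.05 (limma), where 1.15% of all 28988 probes tested did, and 21 had an unadjusted p under 0.05 with a higher effect in WAT, where 8.2% of all probes did. Aurkb, Bub1, Kif11, Ttk and Cdc6, too dim to test in liver, entered this fit because they were bright enough in WAT. Of these, Bub1 was among the 21. The smallest adjusted p was that of Rrm2 (0.0508), whose effect was 1.13 higher on the log2 scale in WAT, with a 95% interval from 0.56 to 1.70. For Ccnb1 and Cenpe the intervals ran from 0.74 to 2.60 and from 0.65 to 2.37. The count was 7 without CD44KO(HFD) liver replicate 3, 6 without WT(HFD) WAT replicate 4, 8 with array weights and 0 without WT(HFD) WAT replicate 1. Of all probes, 81 passed with a lower and 253 with a higher effect in WAT in the main fit. These numbers were 135 and 447 without CD44KO(HFD) liver replicate 3, and 185 and 323 without WT(HFD) WAT replicate 4. They were 1228 and 1241 with array weights, and 103 and 263 without WT(HFD) WAT replicate 1.

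Other genes of the same processes were read from lists of names. In liver, 5.75% of all probes tested were lower and 7.85% higher. Of the tested genes on the list of other mitosis genes, 13 of 33 (39.4%) were lower and none was higher, with a median of -0.59. Ckap2, a microtubule protein of the spindle, was at -3.28 ± 0.40 in WT(HFD) and -4.64 ± 0.50 in CD44KO(HFD) liver (mean ± SD, n = 5), a change of -1.35 ± 0.26 (adjusted p = 0.0156, limma). Nusap1, which bundles spindle microtubules, was at -2.73 ± 0.31 in WT(HFD) and -3.87 ± 0.63 in CD44KO(HFD) liver (mean ± SD, n = 5), and Shcbp1 at -2.66 ± 0.37 in WT(HFD) and -3.78 ± 0.62 in CD44KO(HFD) liver (mean ± SD, n = 5), with changes of -1.14 and -1.13. On the list of other replication genes 6 of 39 (15.4%) were lower and 1 (2.56%) was higher, with a median of -0.01. Uhrf1, which carries DNA methylation through replication, changed by -1.22, Dbf4, the activator of the Cdc7 kinase, by -0.82, and Chaf1a, a histone chaperone at the fork, by -0.70. Among G1 cyclins, kinases and brakes 7 of 28 (25%) were lower and none higher, with a median of -0.21. Cdkn1a, the p21 inhibitor of cyclin-dependent kinases, was at -0.15 ± 0.35 in WT(HFD) and -2.20 ± 0.66 in CD44KO(HFD) liver (mean ± SD, n = 5) and had a larger change than any of the 37 tested genes, -2.05 ± 0.30 (adjusted p = 0.0085, limma). Btg2, an antiproliferative gene, and Rbl1, the pocket protein p107, changed by -1.02 and -0.87. In WAT no gene of these lists was past the threshold, where 0.0398% of all probes tested were. At an unadjusted p under 0.05 (limma), 0 to 4 genes per list were lower and 0 to 5 higher, where 14.9% of all probes passed.

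Of the cell type markers, mainly those of T and NK cells and of stellate cells and fibroblasts were also lower in CD44KO(HFD) liver. Over all probes tested there, 5.75% were lower and 7.85% higher. Of 10 tested T and NK cell markers 6 were lower and none higher, and their summed linear level ran from 2.99 to 5.24 in WT(HFD) and from 2.32 to 3.09 in CD44KO(HFD) liver, in units of the 75th percentile. Of its defining markers Cd28 and Klrk1 were well above background on no liver array, and Cd8a on no CD44KO(HFD) array. Of 10 stellate cell and fibroblast markers 6 were lower, and the sums ran from 108 to 165 in WT(HFD) and from 69.3 to 106 in CD44KO(HFD) liver. The neutrophil list had sums of 2.41 to 3.56 in WT(HFD) and 1.43 to 2.67 in CD44KO(HFD) liver, with Camp and Ngp well above background on no liver array. Macrophage markers were mixed, 2 lower and 1 higher of 11, with sums of 19.8 to 49.7 and 37.9 to 118. None of 8 B and plasma cell, 7 erythroid, 8 endothelial, 6 neutrophil, 3 mast cell, 3 mesothelial or 5 epididymis and testis markers was past the threshold, 1 of 6 adipocyte markers was lower and 1 of 9 hepatocyte markers higher. The sum over the 24 mitosis genes ran from 12.6 to 21.2 in WT(HFD) and from 5.30 to 11.5 in CD44KO(HFD) liver. The part of these cell types in the result was not tested. In WAT no marker of any list was past the threshold, where 0.0398% of all probes tested were. At an unadjusted limma p under 0.05, 14.9% of all probes passed. At that level 6 of 7 mast cell, 5 of 6 mesothelial and 5 of 12 T and NK cell markers were lower. None of these lists had a higher one, and their medians were -3.22, -2.32 and -1.04. Of adipocyte, erythroid and endothelial markers, 4 of 10, 4 of 8 and 4 of 8 were higher.

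**Figure D5:**
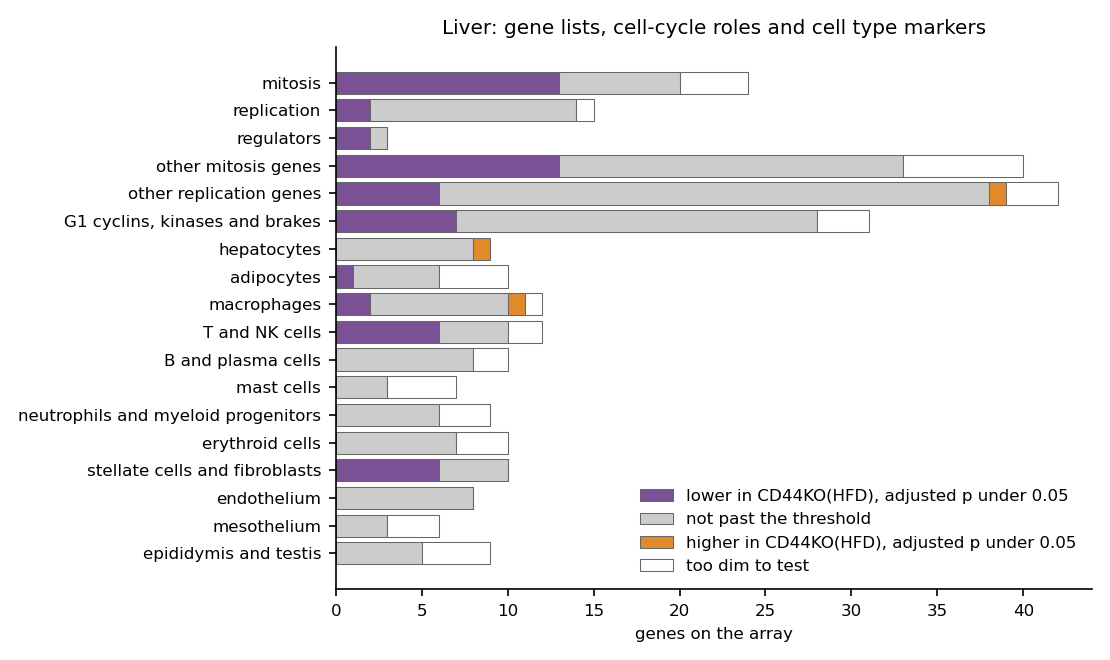
Number of genes on the array in each list (bars), split into genes lower in CD44KO(HFD) liver at an adjusted p under 0.05 (purple), not past the threshold (grey), higher (orange) and too dim to test (white). Lower genes number 13 of 20 tested for mitosis and 6 of 10 each for T and NK cells and for stellate cells and fibroblasts. Over all probes tested in liver, 5.75% were lower.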

How the data were processed

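Liver and WAT of 5 WT(HFD) and 5 CD44KO(HFD) mice were read on 1-colour Agilent arrays of 45018 spots, 43379 of them other than controls, which held 41174 probes. The authors deposited the scanner output of Agilent Feature Extraction 9.5 (labels; 9.5.3.1 in the file headers), a processed signal intensity per spot from which a fitted spatial background surface had been subtracted, with multiplicative detrending and surrogate values for the dimmest spots. The deposited series table held those same processed intensities and was not used further. A between-array normalization and a test for the arrays are not given in the sources used here.

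Processed signals were taken as log2 minus each array's 75th percentile. Outlier spots were left out and spots of a probe averaged. Probes well above background (13 SD, as the scanner software sets it) on at least 3 of 5 arrays of a group were tested per tissue in limma 3.58.1 (lmFit, eBayes; R version 4.3.3). Adjusted p-values are Benjamini-Hochberg values across all probes tested, with 0.05 as the threshold, and the tissues were compared by an interaction term over 20 arrays. The fits were tested on simulated data. Single genes were also tested by exact two-sided permutation over 252 relabellings. The brightest probe stood for a gene. Of the 41174 probes, 22951 matched a RefSeq gene by accession, and loci and promoters are those of GRCm38.p6, while the arrays' own positions are on mm7. Promoters came from RefSeq.

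The members and lists were chosen with earlier results of these data known. Values from each array are given for the 12 liver genes past the threshold with the smallest p, for the 10 WAT genes with the largest changes, and in both tissues for Mki67, Top2a, Cdk1, Ccnb1, Mcm2, Mcm6, Pcna, Rrm2, Ccne1 and E2f1. Of each other pathway list up to 3 genes past the threshold with the largest changes are named. The number of arrays limits the precision. Deviations of same-numbered samples correlated at 0.25, 0.18, -0.04, 0.42 and -0.03 in liver and at -0.21 to 0.09 in WAT. Since not every pair was above 0.1, replicate numbers were not taken as pairs. Alternatives were normexp background correction (offset 50), quantile and median scaling, other filters, kept outlier spots, slide and replicate blocks, array weights, the mean of all probes, a single fit of 20 arrays and leaving out each array.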

Additional observations from a re-analysis of the deposited data

Results flagged for a closer look

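An array lay far from the other 4 in 4 of the 32 groups of 5 values examined in WAT and in 0 of the 38 in liver, where chance gives about 1 in 20. Ccne2 was at -4.04 in CD44KO(HFD) WAT replicate 2, against -2.24 to -1.63 in the other CD44KO(HFD) arrays. E2f1 was at -0.65 in WT(HFD) WAT replicate 5, against 0.04 to 0.29 in the other WT(HFD) arrays. CD44KO(HFD) WAT replicate 3 was high for Ccnb1, at -0.71 against -1.69 to -1.43, and for Pcna, at 4.49 against 4.02 to 4.14.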

How the results depend on the processing

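The 17 genes past the threshold in liver kept a negative log2 change under every alternative run. Their number was 5 with normexp background correction and 8 without the filter on dim signals, and ranged from 4 to 25 when 1 liver array was left out, the 25 including Tk1 as a higher gene without CD44KO(HFD) replicate 3. With 1 liver array left out, the share of all probes that were lower ran from 2% to 7.75%. Fitted with the replicate number as a block, where the samples share only a number, 5 genes passed, and 2.76% of all probes were lower. Of 5 liver pairs, 1 correlated best with its own number. The other alternatives gave 16 to 18, and 2.06% to 7.74% of all probes were lower. The median over the tested genes was -0.46 with normexp and -0.95 to -0.67 with 1 array left out. Rrm2, Ccnb1, Birc5 and Aurka passed in all 10 fits that left out 1 liver array. Of the 19 liver genes given with values from each array, none reversed under the alternatives run, while Kif2c, given by its change alone, was at 0.13 with normexp. In WAT no gene passed under any alternative, and the median was 0.43 with scaling by each array's median, which moved the median of all probes to 0.42, and -0.17 to 0.08 with 1 array left out. The interaction count was 1 with normexp (Cdc20) and 1 with a filter on at least 5 of the 10 arrays of either tissue (Rrm2). It was 1 with the slide as a block (Rrm2), 8 with array weights and 0 to 7 with 1 array left out. Of all probes, 131 passed with a lower and 198 with a higher effect in WAT under normexp, and 80 and 263 with that filter. The slide block passed 279 and 342, and array weights 1228 and 1241. The cause of these changes was not tested.

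WAT changes that turned their sign, none past the threshold, were these. Under normexp Mcm6 was at 0.07 and Rrm2 at 0.04. Under quantile normalization Ttk was at 0.10, Kif11 at 0.01, Ccne2 at 0.01, Cdc6 at 0.30, Cdk1 at 0.03, Ccnb1 at 0.16 and Rrm2 at 0.13. Under median scaling Kif11 was at 0.06, Top2a at 0.08, Ccne2 at 0.19, E2f1 at 0.22, Cdc6 at 0.22, Cdk1 at 0.44, Ccnb1 at 0.32, Mcm2 at 0.41, Mcm6 at 0.45, Pcna at 0.38 and Rrm2 at 0.45. With the slide as a block Cdk1 was at 0.16, Mcm6 at 0.06 and Rrm2 at 0.12. With array weights Kif11 was at 0.01, Ccne2 at 0.19 and Mcm2 at 0. With the mean of all probes Cenpe was at -0.50. With 1 WAT array left out, ranges that crossed 0 were -0.15 to 0.07 for Rrm2, -0.25 to 0.09 for Cdk1, -0.20 to 0.09 for Mcm6 and -0.48 to 0.12 for Ccne2. Signals near background limit Ccnb1, Top2a, Kif2c, Melk, Pbk and Ccne2 in liver.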
